A study of Homo sapiens with 6 samples.

Results

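Of the 387463 positions that the tables of 2′-O-methylation (Nm) mutation calls list for chromatin-associated RNA (caRNA), 14204 lay at intron edges, within 200 nt of the nearest splice site of a protein-coding gene. They were taken on the strand of the gene, from introns of GENCODE release 44, outside every annotated exon and every small RNA gene of that annotation, and without 8 genes, namely A2M, APOB, FN1, DHRS2, FNDC3B, RBM39, SNX5 and PEG3. The imbalanced dNTP table held 4940 of them, in 463 genes and next to 1491 splice sites. The balanced dNTP table held 9694, and 430 were in both tables. Distances are counted from 1 at the outermost intron base, and each position belongs to the nearer of its 5′ and 3′ splice site.

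The caRNA came from HepG2, an established human hepatocellular carcinoma line, in 3 biological replicates. After adapter ligation, the RNA of a replicate was split into 2 reverse transcriptions. The imbalanced dNTP reaction had 1 mM dATP and the other dNTPs at 2 µM. The balanced dNTP reaction, the input, had 1 mM dATP and the other dNTPs at 1000 µM. There were 6 libraries in all. The labels give no other treatment, and both groups share the line and its culture. Of 13 hepatocyte and hepatoma marker genes 11 had a listed position anywhere in the gene, against 0 of 5 fibroblast markers and 1 of 5 blood markers (LYZ).

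Nm is a methyl group on the 2′ hydroxyl of the ribose of any nucleotide. In rRNA it is placed by fibrillarin, which box C/D small nucleolar RNAs (snoRNAs) guide to the site by base pairing. Most human snoRNAs are themselves cut out of introns, where they lie between the splice sites of a host gene. The 5′ edge of an intron binds U1 snRNA through the GU-containing donor site, whereas the 3′ edge holds the branch point, the pyrimidine tract and the AG acceptor. In the assay, reverse transcriptase that runs short of dNTPs other than dATP misincorporates opposite Nm, and a G, A or C is then read as T. The mutation ratio is the share of reads with T. A position passed where each of the 3 imbalanced dNTP libraries had at least 10 reads, at least 3 reads with T and a mutation ratio over 3-fold above the input from that replicate, with the input taken as 0 where the balanced table did not list the position.

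Of the 4940 listed intron-edge positions 216 passed, in 29 genes and at 60 splice sites, which was 4.37% (Wilson 95% interval, 3.84 to 4.98; all such intervals cover counting error only). Asked of only 2 replicates, the criteria passed 362 positions without replicate 1, 410 without replicate 2 and 293 without replicate 3. Among all listed positions of the series 16.8% passed, so the share at intron edges was below that background. RefSeq places small RNA genes that the GENCODE mask did not hold at 117 of the 216, and 5 host genes carried all of these. A further 18 lay in a stretch of an ANKRD30BL intron that matched the 45S pre-rRNA. The other 81 passing positions were in 23 genes, at 52 splice sites. The RefSeq table gives its small RNA genes without a strand, and whether the reads came from the small RNA, from the pre-mRNA around it or, for ANKRD30BL, from another copy was not tested.

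The sequences below show the small RNA genes that held most passing positions, each 5′ to 3′ on the strand of the host gene with the passing positions in capitals. They are small RNA genes at RefSeq coordinates, given in hg38 coordinates as chr20:2462952-2463047 (minus strand) for SNORD119, chr19:12703597-12703671 (minus) for SNORD135, chr12:56643680-56643754 (minus) for SNORD59B and chr7:98881697-98881890 (plus) for SCARNA28, and lie in introns of SNRPB, TNPO2, ATP5F1B and TRRAP.
SNORD119: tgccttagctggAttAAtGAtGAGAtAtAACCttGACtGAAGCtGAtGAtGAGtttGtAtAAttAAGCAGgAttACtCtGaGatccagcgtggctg
SNORD135: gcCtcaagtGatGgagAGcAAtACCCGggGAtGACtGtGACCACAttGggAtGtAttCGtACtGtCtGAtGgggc
SNORD59B: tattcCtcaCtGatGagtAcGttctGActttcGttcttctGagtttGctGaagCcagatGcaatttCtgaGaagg
SCARNA28: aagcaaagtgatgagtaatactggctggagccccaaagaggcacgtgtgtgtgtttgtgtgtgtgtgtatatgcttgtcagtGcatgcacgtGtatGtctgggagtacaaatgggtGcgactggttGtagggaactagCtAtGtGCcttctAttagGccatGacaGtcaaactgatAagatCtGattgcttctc
All 50 listed intron-edge positions of SNRPB, all 48 of TNPO2, all 31 of ATP5F1B and all 52 of TRRAP lay inside these 4 genes. The letters TGATGA and CTGA, those of boxes C and D of a box C/D snoRNA, were searched on the RNA strand. SNORD119 held each 3 times, SNORD59B held 1 and 5, SCARNA28 held 1 and 2, and SNORD135 held CTGA once and no TGATGA. Of the 1491 listed edges, each 200 nt long, 25 or 1.68% held TGATGA with CTGA 30 to 90 nt after it. This rule on spacing is stricter than the counts of letters in the 4 genes, so this share is no background for those counts. Among genes with a passing edge position, SNRPB and ATP5F1B met it, whereas TNPO2 and TRRAP did not. ACSL3, AFP, BPIFB2, EML4, HNRNPC and MDM2 met it too.

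SNORD119, a box C/D snoRNA in an SNRPB intron of 327 nt, held the most. SNRPB encodes an Sm core protein of the spliceosomal snRNPs. Of the 66 G, A and C bases of SNORD119, 50 were listed and 45 passed, or 68.2% of the bases. They sat 54 to 123 nt from the 5′ splice site at a lowest depth of 432 to 1083 reads, and the mean mutation ratio ran from 0.703% to 12.4%, with a median of 2.78%. Most of these ratios were thus low and spread over many bases, and the 3 highest were 12.4%, 8.68% and 8.00%. Summed over these 45 positions, reads with T made up 3.54%, 3.65% and 3.45% of the reads in the imbalanced libraries of replicates 1, 2 and 3. The same share was 0.0941% ± 0.00731 (SD, n = 3) in the input, over the 37 positions that the balanced table listed. The highest ratio was at a G of base 57 (chr20:2462991), 98 nt from the splice site, where 117 of 975, 119 of 881 and 135 of 1154 reads had T with imbalanced dNTP, against 3 of 1559, 1 of 1079 and 5 of 1373 with balanced dNTP.

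SNORD135 lies in an intron of TNPO2, which encodes a nuclear import receptor. The intron is 187 nt long, so its passing positions divided between 27 nearer the 5′ and 11 nearer the 3′ splice site. Here 38 of 57 G, A and C bases passed. Their lowest depth was 74 to 328 reads, and their summed share of reads with T was 3.97%, 4.19% and 4.41% in replicates 1 to 3, against 0.123% ± 0.0106 (SD, n = 3) in the input, over the 26 of them that the balanced table listed. The ratio was again spread over the gene, with a median of 3.56% and a maximum of 10.3%, at a C of base 24. That C had 25 of 330, 34 of 271 and 40 of 370 reads with T and was not in the balanced table.

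SNORD59B in ATP5F1B, the gene of the beta subunit of mitochondrial ATP synthase, and SCARNA28 in TRRAP, the gene of an adaptor protein of histone acetyltransferase complexes, were covered less and passed at fewer bases. In SNORD59B 16 of 48 G, A and C bases passed at a lowest depth of 48 to 126 reads, and the summed share of reads with T was 6.88% ± 0.537 (SD, n = 3) against 0.382% ± 0.0828 in the input, which listed only 6 of them. In SCARNA28 17 of 136 passed at a lowest depth of 46 to 102 reads, with 7.36% ± 0.588 against 0.239% ± 0.227 in the input, which listed only 4 of them. Its highest ratio was 15.8% ± 3.57 (SD, n = 3), at a G of base 143. Of the 16 passing positions of SNORD59B, 15 had their best match by sequence in the small RNA gene ENSG00000252682 and 1 in SNORD59A. Only the best match was kept, so a position can match both. Their reads could be split between copies, and the values of SNORD59B are uncertain.

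**Figure D1:**
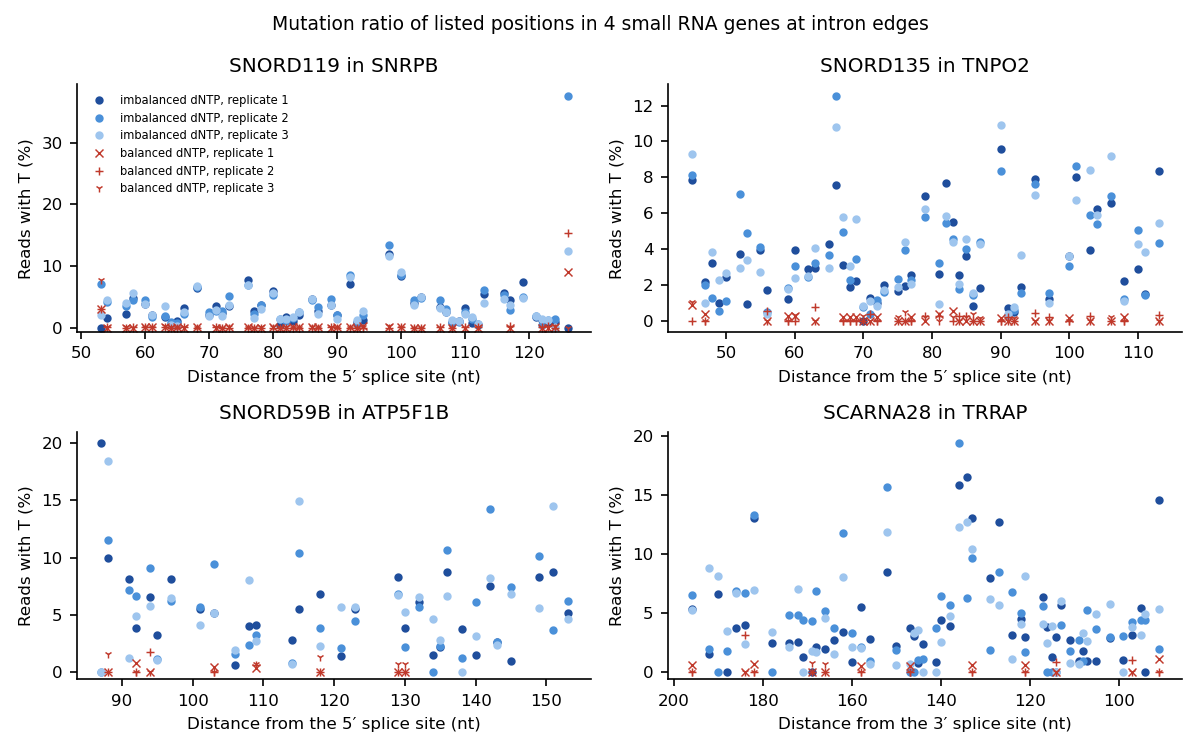
Percent of reads with T at each listed intron-edge position of 4 small RNA genes, against the distance from the splice site in nt (5′ site; 3′ site for SCARNA28). Blue dots are the 3 imbalanced dNTP libraries and red marks the 3 balanced dNTP libraries, drawn where the balanced table lists the position. The highest passing position of SNORD119, at 98 nt, has 11.7% to 13.5% in the imbalanced and 0.0927% to 0.364% in the balanced libraries, and the higher point at its far end did not pass.

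The ANKRD30BL stretch lay 63 to 97 nt from a 5′ splice site, at chr2:132257427-132257471 with 5 bases added on each side (minus strand). It is shown because it held 18 passing positions at 1 edge and the highest mean mutation ratio of the 216 passing positions.
ANKRD30BL: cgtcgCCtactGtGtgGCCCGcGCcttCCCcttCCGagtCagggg
The first capital C (chr2:132257466) had 31 of 54, 33 of 43 and 39 of 53 reads with T, a mean of 69.2% ± 10.4 (SD, n = 3). A G at 69 nt had 44.7% ± 1.27. The other 16 passing positions had mean ratios of 1.40% to 15.3%. Of these 18 positions none was in the balanced table, so the input counted as 0. Summed over the 18, the share of reads with T was 6.57% ± 0.314.

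The 3 kinds of passing position differed in depth and ratio. Passing positions in RefSeq small RNA genes had a median lowest depth of 274 reads and a median mutation ratio of 4.11%. The 81 others had a median lowest depth of 23 reads, at most 55, and a median ratio of 15.5%, from 6.88% to 30%. The criterion of at least 3 reads with T sets the lowest ratio that can pass at a given depth, so the order of these ratios follows depth and is a description only. Listed positions overall had a median lowest depth of 9 reads at intron edges outside small RNA genes and of 116 reads within them.

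**Figure D2:**
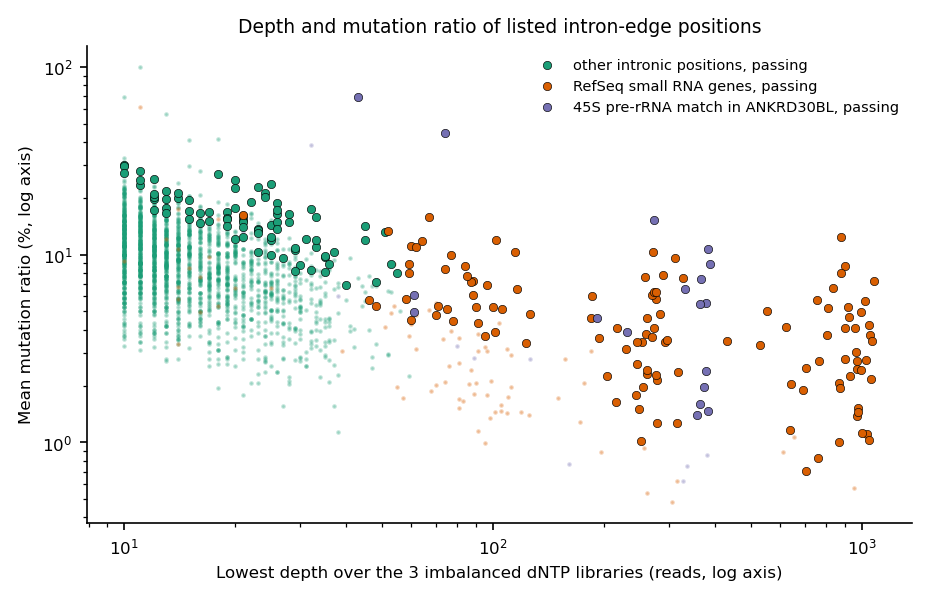
Mean mutation ratio over the 3 imbalanced dNTP libraries in percent (log axis) against the lowest depth of the 3 libraries in reads (log axis), for the listed intron-edge positions with at least 10 reads in each. Large dots with a rim passed and small dots did not. Passing positions in small RNA genes reach 1083 reads and go down to 0.703%, whereas those outside small RNA genes and the 45S match (green) end at 55 reads and stay at or above 6.88%.

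How the passing share ran with distance depended on these genes. At 5′ splice sites 91 of 743 listed positions passed at 51 to 100 nt, or 12.2% (10.1 to 14.8), the highest share of the 16 distance bins. The neighbouring bins were lower, with 1.82% at 26 to 50 nt, 4.99% beyond 100 and up to 150 nt and 2.34% beyond 150 and up to 200 nt. Outside RefSeq small RNA genes the 51 to 100 nt bin fell to 30 of 669, or 4.48%, and without the 45S match as well to 12 of 642, or 1.87% (1.07 to 3.24). With both left out, the 6 bins of 5′ edges ranged from 1.54% to 3.55%, and their intervals all overlapped. The share 1 to 25 nt from the 5′ splice site was unchanged by these exclusions, with 3 of 154 at 1 to 10 nt and 7 of 197 at 11 to 25 nt.

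At 3′ splice sites the highest share was 3.96% at 51 to 100 nt, with 26 of 657. Without small RNA genes and matches, 3 of 150 passed at 1 to 10 nt, 1 of 194 at 11 to 25 nt, 9 of 339 at 26 to 50 nt and 12 of 636 at 51 to 100 nt. Farther in, 3 of 536 passed beyond 100 and up to 150 nt and 3 of 397 beyond 150 and up to 200 nt, or 0.560% and 0.756%. The share within 100 nt was 2.95 times that beyond 100 and up to 200 nt, whereas over all listed positions this ratio was 1.12. At 5′ splice sites the same ratio was 2.01 over all positions and 1.02 without small RNA genes and matches. These ratios rest on few positions and have no test. Outside the limit, beyond 200 and up to 400 nt, 1.99% and 1.55% passed at 5′ and 3′ sites with the same genes and matches left out.

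**Figure D3:**
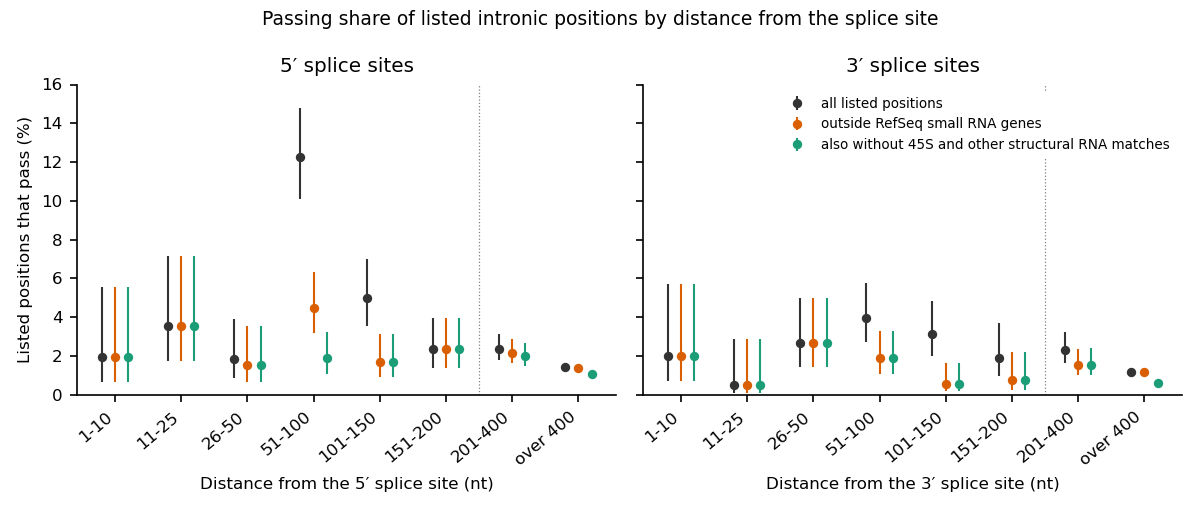
Percent of listed positions that passed in all 3 replicates (y axis) by distance from the splice site in nt (x axis), for 5′ and 3′ splice sites, with Wilson 95% intervals. Black is every listed position, orange those outside RefSeq small RNA genes, and green those that also match no structural RNA of another locus. The black peak of 12.2% at 51 to 100 nt from the 5′ site becomes 1.87% in green.

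Against positions deeper than 200 nt in introns, edges passed more often in the pooled shares. Deeper in introns 743 of 52046 passed, or 1.43% (1.33 to 1.53). Without small RNA genes and matches the shares were 1.72% (1.39 to 2.13) at edges and 1.02% (0.934 to 1.11) deeper. Within single replicates, 32.7% ± 16.03 (SD, n = 3) of the listed edge positions and 28.0% ± 15.8 of the deeper ones met the criteria, with the edges higher in 3 of 3 replicates by 4.71 ± 0.254 percentage points. A two-sided exact permutation test over the 3 pairs gave p = 0.25, which is the lowest value 3 pairs can reach. The replicates themselves differed, with 26.5%, 20.7% and 50.9% of the edge positions in replicates 1, 2 and 3 at median depths of 12, 11 and 16 reads. The part of depth in this was not tested.

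At matched depth the passing shares of edges and deeper positions had overlapping intervals. With small RNA genes and matches left out, 1.86% (1.30 to 2.66) of the edge positions and 1.98% (1.76 to 2.22) of the deeper ones passed at a lowest depth of 10 to 19 reads. At 20 to 49 reads these shares were 9.88% (7.55 to 12.8) and 8.16% (7.19 to 9.26), and at 50 reads or more 33.3% (12.1 to 64.6) of 9 and 29.7% (20.5 to 40.9) of 74. Within the 137 genes that had at least 5 listed positions of each kind, the edge share was higher in 17, lower in 42, and both were 0 in 78. The mean of the gene shares went the other way, with 0.944% at edges and 0.594% deeper, as did the pooled shares, 1.99% and 1.16%. Over all genes, edges had fewer listings than deeper introns, 4711 against 51123. The part of listing numbers in the tally of the 137 genes was not tested. Tally and shares went in opposite directions, so no direction within genes is drawn from them.

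Summed over listed positions of the imbalanced libraries, T was read in 7.43% ± 0.547 (SD, n = 3) of the reads at edges and 12.3% ± 0.946 at deeper ones. The edges were lower in 3 of 3 replicates, by 4.88 ± 0.400 percentage points (exact permutation over pairs, p = 0.25). The deep, low-ratio small RNA positions carried much of this gap, since without them and the matches the shares were 11.4% ± 0.773 and 12.8% ± 0.912. Again without them, at a depth of at least 20 in each library, the edge share minus the deeper share was -0.146 percentage points, with the edges at 7.03% and the deeper positions at 7.17%. Mismatches to bases other than T were 0.359% ± 0.0291 of reads at these edge positions and 0.382% ± 0.0137 deeper. Positions enter the table only with T reads, which raises the ratio of thinly covered ones.

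Between the kinds of splice site, 5.81% (4.97 to 6.77) of listed positions passed at 5′ edges and 2.78% (2.19 to 3.52) at 3′ edges. Without small RNA genes and matches the shares were 2.03% (1.55 to 2.67) and 1.38% (0.971 to 1.95), and the intervals overlapped. In single replicates the difference outside these genes was 2.62 ± 2.37 percentage points, higher at 5′ edges in 3 of 3 (exact permutation over pairs, p = 0.25).

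Counts could be compared between groups only where both tables listed a position. Of the 430 such edge positions 281 had at least 10 reads in all 6 libraries. In edgeR's quasi-likelihood fit over all 32284 such positions of the series, 73.9% were called higher and 0.0558% lower with imbalanced dNTP at an adjusted p under 0.05. At the edges 115 of 281, or 40.9%, were higher and 0 were lower. In DESeq2 the counts were 139 and 0, with 76.1% called higher over the series. Taken at an unadjusted p under 0.05, edgeR gave 124 higher at the edges, against 24614 of the 32284. The calls were 84 of 94 in RefSeq small RNA genes and 1 of 1 in a structural RNA match. That match lay in another gene than ANKRD30BL. Elsewhere 30 of 186 were called, or 16.1%, below the background of the series. Deeper in introns outside such genes 9.14% were called. All 89 edge positions of the fit that passed the criteria were among the calls, together with 26 of the 192 that did not pass. Passing already requires a ratio over 3-fold above the input in each replicate, so the calls at passing positions restate the criteria. Without the replicate block the edge calls were 173, or 61.6%, and the series had 83.4%. Leaving out replicate 1, 2 or 3 left calls at 57 of 307, 64 of 323 and 65 of 283 edge positions. Of these calls, 57, 63 and 64 were in RefSeq small RNA genes. Over the series the called share fell as well, to 54.2%, 56.4% and 55.7%. The 30 edge calls outside small RNA genes and matches became 0, 1 and 1, and 86 without the block. Deeper in introns the 103 such calls likewise became 6, 9 and 7, and 384 without the block.

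Over the 430 positions the share of reads with T was 0.747% ± 0.0357 (SD, n = 3) in the input and 4.50% ± 0.0810 with imbalanced dNTP, higher in 3 of 3 replicates (exact permutation over pairs, p = 0.25). Outside RefSeq small RNA genes the shares were 4.32% ± 0.258 and 12.4% ± 0.0509. In small RNA genes the input share was lower, at 0.160% ± 0.0150. With the 2 groups of libraries exchanged, 9 edge positions met the criteria in all 3 replicates, against 216 as labelled.

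The balanced libraries listed many positions at the splice sites themselves. The outermost 10 intron bases held 780 positions of the balanced table at 5′ sites and 710 at 3′ sites, whereas the next 10 bases held 228 and 184. In the imbalanced table these counts were 154 and 150, then 128 and 122. At the balanced 5′ sites base 3 alone had 234 listed positions and base 1 had 166, while base 10 had 25. At 61.9% of the 1490 balanced positions (923) the annotated exon joined across the intron carries T at the same offset, the base that a read running over the junction would show. That share was 28.2% at bases 11 to 20, where 116 of 412 had it. Over all G, A and C bases at offsets 1 to 10 of these genes it was 24.2% at 5′ and 17.9% at 3′ sites. With imbalanced dNTP, 39.5% of 304 listed positions had it at bases 1 to 10 and 31.2% of 250 at bases 11 to 20. These are matches of letters, and whether such reads were spliced was not tested.

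**Figure D4:**
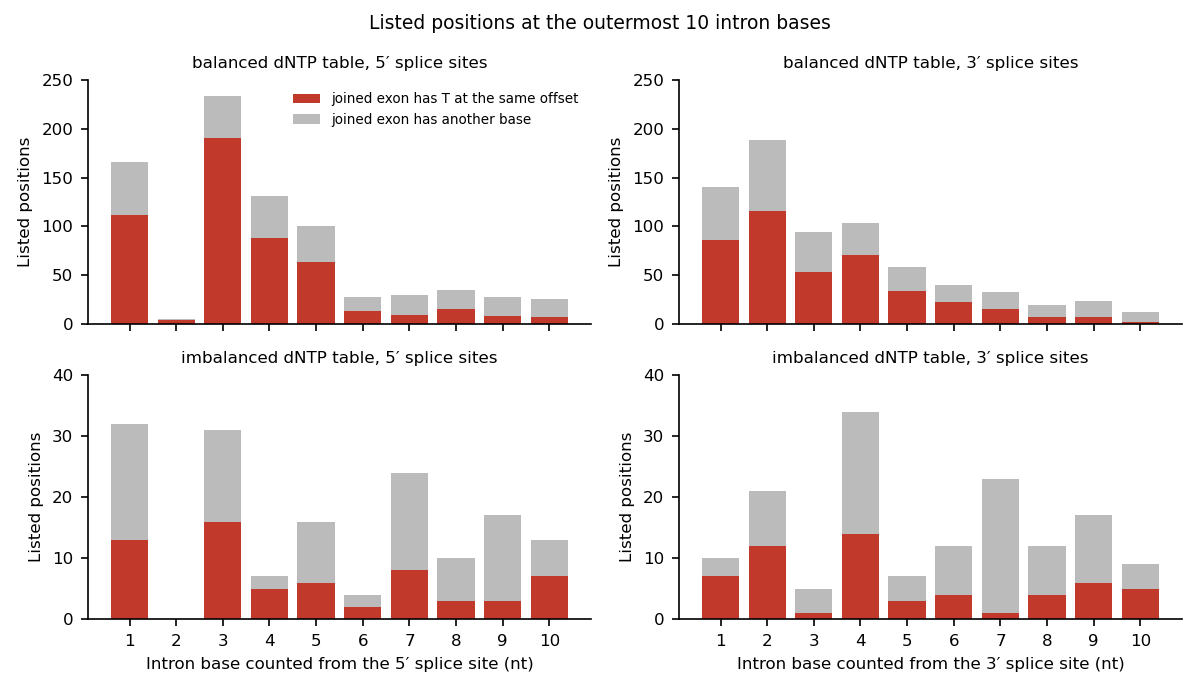
Number of listed positions (y axis) at each of the outermost 10 intron bases (x axis, nt from the splice site), for the balanced (top) and imbalanced (bottom) dNTP tables, with 5′ sites left and 3′ sites right and separate y scales. Red marks positions where the joined exon carries T at the same offset, grey those where it carries another base. Balanced listings crowd at bases 1 to 5, with 234 at base 3 of 5′ sites, and are mostly red.

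Of the 6 passing positions within 10 nt of a splice site, 3 had T in the joined exon. The last base of an AFP intron (chr4:73444992), the G of the AG acceptor, had 3 of 31, 3 of 15 and 5 of 23 reads with T, or 17.1% ± 6.52 (SD, n = 3), and its joined exon carries T. So does base 3 of another AFP intron, an A (chr4:73450136) with 7 of 18, 5 of 20 and 4 of 23 reads with T, or 27.1% ± 10.9, against 0 of 26, 1 of 17 and 0 of 19 in the input. HNRNPH1 had the third, 8 nt from a 3′ site. AFP encodes alpha-fetoprotein, a plasma protein of the fetal liver and of liver tumours. The joined exon did not carry T at the others. They were the first base of a BPIFB2 intron, base 7 of an HLF intron and an EML4 position 6 nt from a 3′ site.

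The BPIFB2 donor base was the most deeply covered of these 6 positions, at a lowest depth of 45 reads. BPIFB2 encodes a member of the BPI fold family of lipid-binding proteins. Its first 150 intron bases are shown with their passing positions in capitals (chr20:33020588-33020737, plus strand).
BPIFB2: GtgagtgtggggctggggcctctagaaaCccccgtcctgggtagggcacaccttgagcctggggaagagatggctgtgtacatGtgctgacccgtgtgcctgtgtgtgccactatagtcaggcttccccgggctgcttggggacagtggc
The G of the GT donor had 8 of 57, 4 of 45 and 9 of 69 reads with T, or 12.0% ± 2.73 (SD, n = 3), against 0 of 112, 0 of 60 and 1 of 88 in the input. The C at 29 nt and the G at 84 nt had 22.9% ± 2.81 and 22.8% ± 3.74, and neither was in the balanced table. BPIFB2 had 6 passing of 171 listed edge positions, or 3.51%, and 3.63% deeper in its introns.

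Outside small RNA genes and matches, 61 of the 81 passing positions were G, or 75.3% (64.9 to 83.4). Among edge positions there that were listed with at least 10 reads and did not pass, 48.5% were G, and of all G, A and C bases of these edges 32.1% were. A U on both sides (UNU) surrounded 48.1% (37.6 to 58.9) of the passing positions, 30.005% of those that did not pass and 10.4% of all such bases. The positions passing deeper in introns were 78.8% G and 58.1% (53.8 to 62.2) UNU. Passing positions in small RNA genes were 43.6% G, 35.0% A and 21.4% C, and 15.4% were UNU. Both G and UNU were thus commoner in the 81 than in the small RNA genes. There 45 of 66 bases of SNORD119 and 38 of 57 of SNORD135 passed, so the base content of these genes enters the shares. Median lowest depths also differed, at 23 and 274 reads, and the part of depth was not tested. Listing itself already favoured G, since 53.1% of the listed edge positions that did not pass were G.

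MDM2, the ubiquitin ligase that targets p53, had 10 passing edge positions, the most outside small RNA genes and matches. They lay at 7 splice sites, 8 of them nearer a 3′ site, and were 3.88% of its 258 listed edge positions, against 2.04% deeper in its introns. The last 150 bases of the intron that held 3 of them are shown (chr12:68820175-68820324, plus strand), since passing positions there were 90, 88 and 68 nt before the acceptor AG.
MDM2: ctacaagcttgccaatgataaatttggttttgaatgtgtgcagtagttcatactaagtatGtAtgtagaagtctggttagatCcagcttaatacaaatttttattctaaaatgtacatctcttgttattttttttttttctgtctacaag
The G at 90 nt had 6 of 58, 8 of 51 and 8 of 59 reads with T, a mean of 13.2% ± 2.69 (SD, n = 3). Both it and the A at 88 nt, with 8.02% ± 2.25, have U on both sides. Neither was in the balanced table.

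HNRNPH1, which encodes an hnRNP that regulates splicing, had 4 passing positions, all nearer 3′ sites, of 65 listed. The last 150 bases of 1 intron are shown for the 3 that lay there (chr5:179621977-179622126, minus strand).
HNRNPH1: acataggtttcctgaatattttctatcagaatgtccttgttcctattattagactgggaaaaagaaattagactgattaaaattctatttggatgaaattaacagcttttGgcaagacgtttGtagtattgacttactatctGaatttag
At 28 nt a G had 8 of 48, 5 of 45 and 8 of 53 reads with T, or 14.3% ± 2.86 (SD, n = 3). The fourth, a G 38 nt before the acceptor of another intron, had 20.3% ± 0.764, with 5 of 24, 6 of 29 and 7 of 36 reads.

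AFP followed MDM2 with 9 of 211 listed edge positions, or 4.27%, against 1.63% deeper. They were spread over 7 splice sites. CDC7, the kinase that starts replication at licensed origins, had 8 of 102, or 7.84%, against 7.09% deeper, and its edges were the deepest covered of the genes with over 100 listed edge positions, at a median lowest depth of 26 reads. At 65 nt from a 5′ site it had 4 of 53, 4 of 59 and 11 of 89 reads with T, against 1 of 131, 0 of 75 and 0 of 74 in the input.

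FASN (fatty acid synthase), FGL1 (a fibrinogen-like protein that hepatocytes secrete) and HLF (a PAR bZIP transcription factor) had 6 passing positions each. In FGL1 all 6 lay at 1 splice site, 13 to 160 nt into the intron. The shares of FASN went the other way from those of AFP, with 1.95% of 308 edge positions and 10.4% of 154 deeper ones. HLF had 8.33% of 72 and 2.94% of 1700. Single genes thus differed in direction, and no test was made on them.

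EML4, which encodes a microtubule-binding protein, had 5 passing positions, 4 of them nearer 3′ sites. The highest was a G 69 nt from a 3′ site with 8 of 30, 6 of 24 and 4 of 32 reads with T, or 21.4% ± 7.74 (SD, n = 3). A G of TGFBR2, the type II receptor of TGF-beta, had 23.7% ± 12.4 at 153 nt from a 5′ site, with 9 of 25, 3 of 27 and 7 of 29 reads. An AFP G 108 nt from a 5′ site had 25.01% ± 12.8. CEP97, which encodes a centriolar protein, had a single passing position, at 19.1% ± 4.85. The replicate values of these positions overlapped, so they have no order. FTCD and SLC17A9 had 3 each, an uncharacterised gene had 2 on chromosome 6, and 10 genes had 1 each outside small RNA genes.

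**Figure D5:**
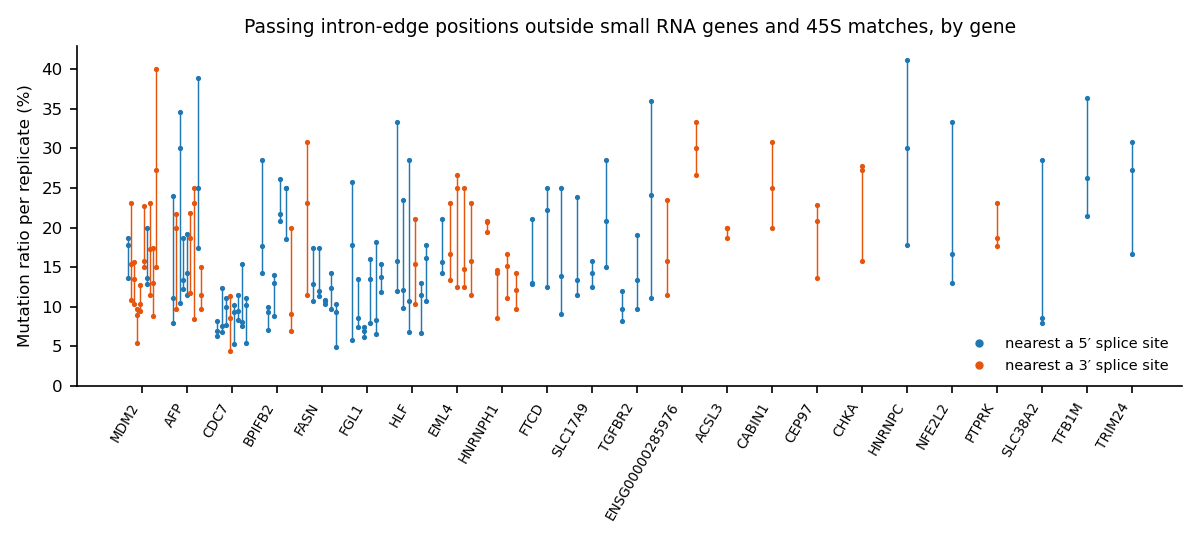
Mutation ratio in percent of each passing intron-edge position outside small RNA genes and 45S matches, by gene. Each vertical line is 1 position, its dots are the 3 imbalanced dNTP replicates, and colour marks the nearer splice site. MDM2 leads with 10 positions, and the replicate values of 1 position span up to several times the lowest of them.

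Of 24 genes of liver plasma proteins 13 had listed edge positions, 452 in all, and AFP alone had passing ones. The share was 1.99% at edges and 1.21% deeper. ALB, the gene of serum albumin, had 83 listed edge positions and SERPINA1 (alpha-1-antitrypsin) had 32, none passing, at median lowest depths of 8 and 7.5 reads, which is under the 10 reads that the criteria ask for. Of 42 genes of splicing factors and RNA-binding proteins 17 had listed edge positions, 254 in all, and 5 positions passed, 4 in HNRNPH1 and 1 in HNRNPC. Their share was 1.97% at edges and 2.42% deeper. HNRNPC had 116 listed positions, and the passing G, 54 nt from a 5′ site, had 29.7% ± 11.7 (SD, n = 3) at a lowest depth of 10 reads. SRSF6, a serine- and arginine-rich splicing factor, had 36 listed and none passing. Both lists stood near the 1.72% of all edges without small RNA genes and matches.

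Listing itself grew more frequent toward 3′ splice sites. Per 1000 G, A and C bases of the edges of genes with a listed intronic position, the imbalanced table held 0.817 positions at 1 to 10 nt from the 3′ site, 0.684 at 51 to 100 nt, 0.464 beyond 150 and up to 200 nt and 0.401 beyond 200 and up to 400 nt. Toward 5′ sites it stayed between 0.580 and 0.715. Depth summed over listed edge positions was 127050 to 180406 reads in the imbalanced and 153780 to 221534 in the balanced libraries, with medians of 11 to 16 and 8 to 12 reads per position. The median lowest depth of a listed edge position, 9 reads, is below the 10 reads that the criteria ask for, and 2288 of the 4940 had at least 10 in each library. The rest could not have passed at this depth whatever their ratio.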

How the data were processed

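Chromatin-associated RNA of HepG2 cells, depleted of RNA under 200 nt and of rRNA, was read in 6 libraries. Per the labels and the study's methods, the authors trimmed reads with Cutadapt, removed duplicates by molecular identifier, aligned to hg38 with TopHat2 and called mismatches with JACUSA, whose versions are not given in the sources used here. For every listed position and library, the deposited tables give the raw counts of reads with A, C, G and T on its strand, and only positions with T reads are listed. Multiple alignments were allowed, so reads of near-identical copies can be split or shared between them.

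Positions were placed in introns of GENCODE release 44, and the criteria were a depth of at least 10, at least 3 reads with T and more than 3 times the input in each replicate. The study also required the ratio to exceed a background set from spike-in oligonucleotides, a criterion that was not used here. In the series 29651 positions passed here, more than the Nm sites that the study reports. Passing positions are therefore not Nm sites by the definition of the study. Members and lists were chosen with earlier results of these data known, and the RefSeq separation was added after seeing the data. RefSeq small RNA genes came from the GRCh38.p14 table, and matches to structural RNAs from blastn 2.17.0. Named positions were the edges with most passing positions, those with the highest ratio at a depth of at least 20, and those in the first or last 2 intron bases. The 10 genes with most passing positions were also named. Other genes, and the edges of BPIFB2, MDM2 and HNRNPH1 whose sequence is printed, were chosen after their values were seen. The values of 1 gene are not reported here.

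Counts with T and without were fitted with edgeR 4.0.16 (R 4.3.3) over the 32284 positions with at least 10 reads in all 6 libraries, with the replicate as a block, and p-values were Benjamini-Hochberg adjusted. DESeq2 1.42.0 was an alternative. On simulated data 44% of 3-fold and 71% of 6-fold changes were recovered. There 200 of the 32284 positions were changed, starting from the T share pooled over both groups. In the data 73.9% were called higher, so these rates do not give the power of the fit. Replicate numbers were taken to pair the libraries because, per the labels, ligated RNA was divided between both reactions. Correlations of depth deviations were 0.0329, 0.110 and 0.106 for equal numbers and -0.131 to 0.0369 for unequal ones. They were all low, and that of replicate 1 lay within the range of unequal numbers. Shares were compared with an exact paired permutation test over 3 replicates, whose smallest two-sided p is 0.25. Wilson 95% intervals cover counting error only.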

Additional observations from a re-analysis of the deposited data

How the results depend on the processing

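The 216 passing positions became 134 at a depth of 50, 111 with at least 5 reads with T, 119 and 54 at a mutation ratio of at least 0.05 and 0.1, 89 where the balanced table had to list them and 29 within 50 nt. Without RefSeq small RNA genes, an alternative chosen after seeing the data like every other one that names RefSeq, 99 were left, and 81 without structural RNA matches as well. Leaving out 1 replicate gave 293 to 410.

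The share passing at edges minus that deeper was 2.94 percentage points. It was 2.41 at a depth of 50, 1.91 with 5 reads with T, 1.15 and 0.238 at ratios of 0.05 and 0.1, 1.67 with a balanced listing required, 2.29 with protein_coding transcripts only, 3.86 within 100 nt and 0.700 within 50 nt. It was 2.67 without structural RNA matches, 2.35 without introns that hold a small RNA gene, 5.20 over listings at a depth of 10, 0.625 as a mean over genes, 2.07 without SNRPB, 0.707 without RefSeq small RNA genes and 0.702 without matches too. Without 1 replicate it was 3.35 to 3.87.

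The edge minus deeper share of reads with T, -4.88 points, was -1.48 as a mean of single positions, -2.47 at a depth of 20, -8.56 in both tables, -3.04 without SNRPB and -1.56 without RefSeq small RNA genes. Without matches too it was -1.41, or -1.21 as a mean of positions and -0.146 at a depth of 20. Without 1 replicate it was -5.001 to -4.65.

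The ratio of passing shares within 100 nt to those beyond 100 nt, 2.01 at 5′ sites, was 2.21 per G, A and C base, 1.82 at a depth of 10, 1.67 without RefSeq small RNA genes, 1.02 without matches too and 1.38 to 2.03 without 1 replicate. At 3′ sites 1.12 became 1.47, then 2.95 under either exclusion, and 1.04 to 1.31 without 1 replicate.

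The 115 edgeR calls became 173 with no replicate block, 57 to 65 without 1 replicate and 30 outside small RNA genes and matches. Over the series the called share, 73.9%, became 83.4% with no block and 54.2% to 56.4% without 1 replicate. The 30 edge calls outside small RNA genes and matches became 0 to 1 without 1 replicate, and the 103 such calls deeper in introns became 6 to 9. None of the alternatives given here turned a direction. Among positions with a lowest depth of 10 to 19, however, the edge share, 1.86%, was below the deeper one, 1.98%. The edge share was lower in 42 genes and higher in 17, and the part of the fewer edge listings in this tally was not tested. In the 137 genes compared, the mean and pooled shares were higher at edges, at 0.944% and 1.99% against 0.594% and 1.16%. The cause of these changes was not tested. Listed positions had a median lowest depth of 9 reads at edges and of 8 reads deeper in introns.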
